A study of Homo sapiens with 16 samples.

Results

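The response to harmine was described gene by gene in quiescent U2OS cells, an established human osteosarcoma line of mesenchymal lineage that keeps a working p53. The members were the 4 libraries of harmine-treated cells and the 4 libraries of their mock-treated controls, 8 of the 16 libraries in the series, and all 20446 of 59081 genes in the table that passed a filter on low counts. The cells had been grown to confluence and then kept for 48 h without serum. During the last 24 h they received either harmine hydrochloride at 10 µM or a matching amount of water, its solvent. In the other 8 libraries cells held in the same way received INDY at 25 µM or its solvent DMSO, again with 4 libraries per group. They enter here only where the effect of harmine was set against that of INDY. Poly(A)-selected RNA was read, so each level is the steady-state amount of a gene's mRNA among all mRNA in a culture. Fewer cells of one kind and less RNA per cell cannot be told apart in such samples. Since no source says that replicates came from separate cultures, a p-value weighs a difference only against the scatter of these libraries, part of which may be technical.

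Harmine is a plant alkaloid of the beta-carboline class that competes with ATP in the kinase DYRK1A and also blocks monoamine oxidase A. DYRK1A phosphorylates LIN52, a step that lets the DREAM complex assemble and silence cell cycle genes in resting cells. It also phosphorylates NFAT transcription factors, cyclin D1 and splicing factors, and its relatives in the CLK family phosphorylate SR splicing proteins. Confluent cells without serum leave the cell cycle and lean on recycling of their own material, on lipid and amino acid synthesis and on survival signals. The lists described below cover those systems as well as the known protein targets of the drug.

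The libraries held between 44301910 and 65889667 estimated counts, with a median of 59899766 for water and 51297900 for harmine. Both groups lay apart along a first principal component that took 57.2% of the variance of log2 CPM (estimated counts per 1e+06 of a library, with its scaling factor applied), from -45.7 to -35.6 for water and from 39.8 to 41.7 for harmine. The water libraries were not alike. On the second component, with 8.6% of the variance, replicates 1 and 4 lay at 6.36 and 25.4 and replicates 2 and 3 at -17.1 and -18.7. The squared difference per gene between a pair of libraries, relative to what counting alone gives, averaged 2.15 for water replicates 2 and 3, 14.2 and 14.7 for each of these against replicate 4, and 2.34 to 4.53 among harmine libraries. No pair of libraries agreed within counting error. Calls of named genes and larger list counts that change without either pair of water libraries are given with the value without it, and the cause of this split was not tested. Of 24 mesenchymal markers, TWIST1 had no count in any of the 8 libraries and 19 had a mean of at least 1 CPM. Of 26 markers of the osteoblast lineage, DLX5, DLX6 and OMD had no count and 12 had at least 1 CPM.

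Harmine moved about as many genes up as down, and most of the changes were small. A gene was called changed at an adjusted p under 0.01 in edgeR's quasi-likelihood test. Of 20446 genes tested, 5082 (24.9%) were higher and 4666 (22.8%) lower with harmine, 47.7% in all, around a median log2 fold change of 0.02. A change of at least 1.5-fold was called for 1720 genes upwards (8.41%) and 1615 downwards (7.9%). In 55.1% of all genes tested every harmine library lay on one side of every water library. These shares are one background for the lists below. Of 15194 protein-coding genes tested 27.3% were higher and 26.5% lower. Of 2379 members of any list other than DREAM targets and DNA repair genes the shares were 27.7% and 32.1%. The share higher rose with level. It was 13.7% of nuclear protein-coding genes with a mean log2 CPM up to 0 and 38.9% of those above 8, with 15.9% and 23.6% lower. Outside the lists of DREAM targets and DNA repair genes, 20174 genes were tested, of which 4900 were higher and 4644 lower with a median of 0.01. Without water replicates 1 and 4 the counts were 3914 higher and 3976 lower, of which 3807 and 3790 were also called with all libraries. Without replicates 2 and 3 they were 4411 and 4075, of which 4167 and 3855 were called with all libraries. Across the lists shown in the plot of shares of members called, downward shifts were led by embryonic cleavage-stage genes, histones, interferon-stimulated genes, cytokines and sterol enzymes. Among lists other than DREAM targets and DNA repair genes, upward shifts were led by actin cytoskeleton genes, mitochondrial mRNAs, p53 targets, cilium genes, spliceosome and ribosomal proteins. Members shared with the DREAM target and DNA repair lists were not removed from these lists. Without water replicates 2 and 3 none of the mitochondrial mRNAs was called.

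**Figure D1:**
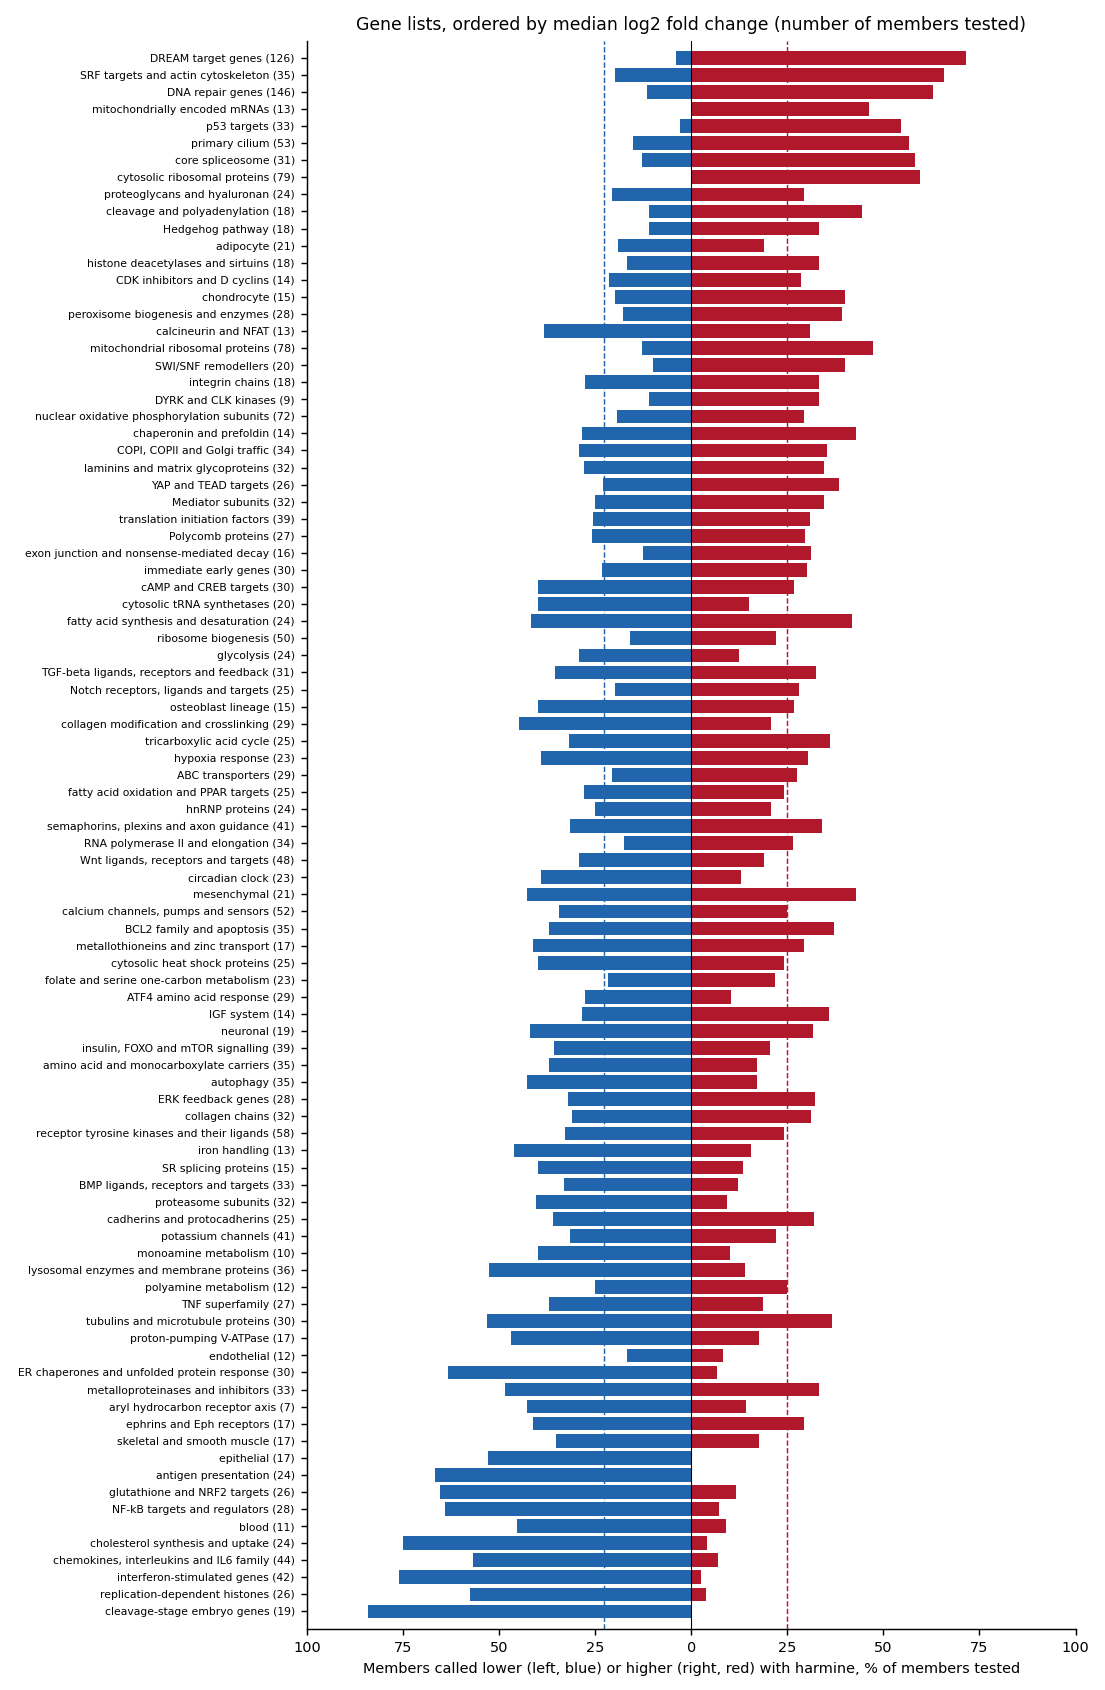
Share of the tested members of each gene list that were called lower (blue, left) or higher (red, right) with harmine, in percent, with lists ordered by their median log2 fold change and the number of members tested in brackets. Dashed lines mark the shares over all genes tested, 22.8% lower and 24.9% higher; the cleavage-stage embryo, interferon-stimulated and cholesterol lists reach farthest to the left and the DREAM target and actin lists farthest to the right.

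Genes were ranked by fold change where the mean log2 CPM was at least 1, the groups did not overlap and the symbol was not clone-based. In that ranking the largest rises were in genes of membrane signalling, cell identity and cytokines. Larger changes stood among less abundant genes. In nuclear protein-coding genes with a mean log2 CPM up to 0, log2 fold changes ran from -6.74 to 8.81. TMEM158 (chromosome 3, 45224466-45226287, minus strand, GRCh38), a membrane protein first found as induced by activated RAS, read 32.8, 34.6, 34.4 and 28.2 CPM with water and 208, 223, 234 and 234 CPM with harmine. The harmine libraries lay close together and 6.91 times above the water libraries (log2 fold change 2.79 ± 0.09, adjusted p = 7.98e-14). SHISA9 (chromosome 16, 12901598-13240416, plus strand), an auxiliary protein of AMPA-type glutamate receptors, read 4.68, 5.38, 5.92 and 3.38 CPM with water and 24.6, 25.2, 25 and 24.4 CPM with harmine, with water replicate 4 lowest and no overlap (log2 fold change 2.35 ± 0.13, adjusted p = 5.76e-11). KRT75, a type II keratin of the hair follicle, read 23.8, 27.7, 25.8 and 24.3 CPM with water and 94.3, 98.7, 99.1 and 100 CPM with harmine (log2 fold change 1.95 ± 0.12, adjusted p = 2.03e-10). SNAI2, the zinc finger repressor that drives epithelial cells toward a mesenchymal state, read 4.35, 3.91, 4.11 and 3.45 CPM with water and 16.3, 17, 16.5 and 16.8 CPM with harmine (log2 fold change 2.07 ± 0.08, adjusted p = 3.39e-13). With INDY the log2 fold changes of these 4 genes were -1.09 ± 0.10, -2.18 ± 0.18, -1.09 ± 0.14 and -1.07 ± 0.10. LTA, the cytokine lymphotoxin alpha, read 0.894, 0.698, 0.626 and 1.16 CPM with water and 5.15, 5.23, 5.22 and 5.02 CPM with harmine (log2 fold change 2.63 ± 0.14, adjusted p = 1.82e-11). The other genes of the 12 with the largest rises had log2 fold changes from 1.78 (EDN1) to 2.29 (PICART1). PICART1 is a p53-inducible noncoding RNA and EDN1 the vasoconstrictor endothelin 1. SLITRK6 is a synaptic adhesion protein, TNFRSF13C the receptor for the B cell factor BAFF and PAEP a secreted lipocalin. DNAI4 is a dynein intermediate chain of motile cilia and ACRBP an acrosin-binding protein. In each of these 12 genes the lowest harmine library was above the highest water library, as the rule for naming them required.

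In the same ranking the largest falls were in immune receptors, transport proteins and secreted enzymes, and here the water libraries differed among themselves. CLEC7A, a receptor for fungal beta-glucan, read 27.2, 13.4, 11.2 and 33.8 CPM with water and 2.4, 1.64, 2.28 and 2.13 CPM with harmine. Water replicates 1 and 4 lay above replicates 2 and 3, and all 4 lay above every harmine library (log2 fold change -3.34 ± 0.40, adjusted p = 1.07e-06). PRSS35, a protein related to serine proteases, read 16.4, 4.1, 3.49 and 36.3 CPM with water and 1.69, 1.66, 1.63 and 1.27 CPM with harmine, and LOXL4, a lysyl oxidase that crosslinks collagen, read 174, 85.2, 73.8 and 288 CPM with water and 37.7, 35.6, 35.5 and 35.2 CPM with harmine. In both genes water replicates 1 and 4 stood far above replicates 2 and 3, which were still above the harmine libraries. With all libraries PRSS35 had a log2 fold change of -3.26 ± 0.77 (adjusted p = 0.00136, but 0.0466 by limma voom) and LOXL4 of -2.11 ± 0.42 (adjusted p = 0.000316). Without water replicates 1 and 4 these were -1.29 (adjusted p = 0.126) and -1.16 (adjusted p = 0.0202), and neither call held. For CLEC7A the value without them was -2.57 (adjusted p = 1.86e-05). ABCC9, the sulfonylurea receptor subunit of potassium channels gated by ATP, was even across each group, at 14.1, 14.7, 14.5 and 14.5 CPM with water and 2.93, 3.25, 2.94 and 3.4 CPM with harmine (log2 fold change -2.21 ± 0.07, adjusted p = 3.2e-14). AQP3, a channel for water and glycerol, read 5.73, 5.44, 5.1 and 6.91 CPM with water and 0.916, 0.865, 0.942 and 1.23 CPM with harmine (log2 fold change -2.54 ± 0.18, adjusted p = 6.85e-10). PLEK, the platelet protein pleckstrin, fell from 8.11 ± 0.562 to 1.83 ± 0.15 CPM (mean ± SD, n = 4 libraries, here and below). TBC1D10C, a Rab GAP of lymphocytes, fell from 3.93 ± 0.256 to 0.856 ± 0.0689 CPM, and IL34, a ligand of the CSF1 receptor, from 7.7 ± 1.09 to 1.82 ± 0.199 CPM. SYT12, a synaptotagmin, fell from 5.85 ± 1.01 to 1.35 ± 0.125 CPM, and ARPP21, a neuronal phosphoprotein, from 5.91 ± 1.29 to 1.16 ± 0.18 CPM. ANKRD22, an ankyrin repeat protein, and IL2RG, the common gamma chain of interleukin receptors, complete the 12, with log2 fold changes of -3.28 and -2.58. The value for IL2RG is uncertain because 48.3% of its sequence also occurs in another gene.

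**Figure D2:**
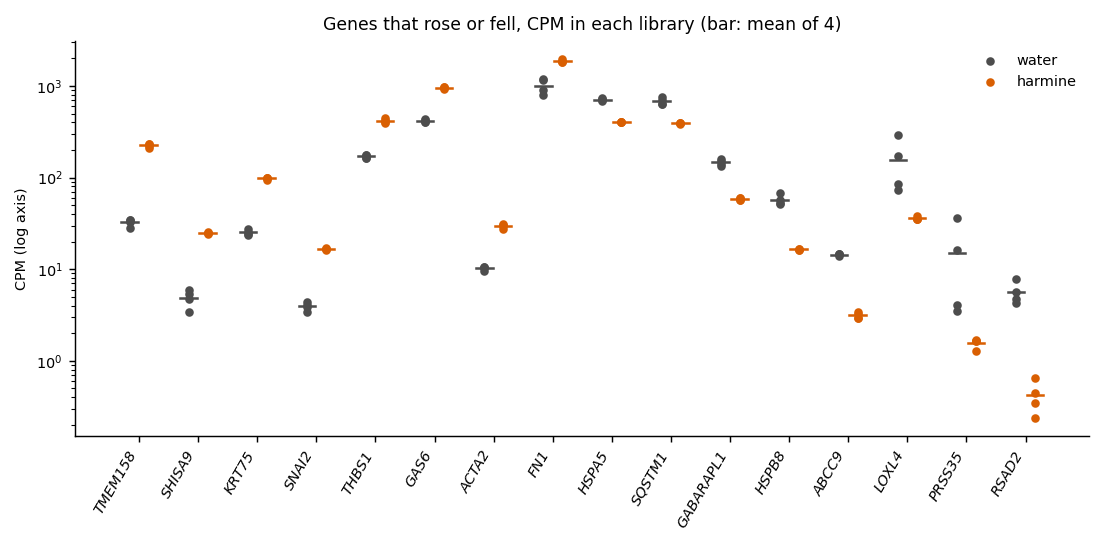
Level in CPM (log axis) of 16 genes in each of the 4 water (grey) and 4 harmine (orange) libraries, with a bar at the mean of each group. Harmine libraries are tightly grouped in most of these genes but not in RSAD2. LOXL4 and PRSS35 show the spread of the water libraries, from 73.8 to 288 CPM and from 3.49 to 36.3 CPM.

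In absolute terms the largest changes were in cytoskeleton, matrix and housekeeping mRNAs. FLNA, the actin crosslinker filamin A, gained most, at 3697, 3839, 3769 and 4091 CPM with water and 5257, 5389, 5153 and 5292 CPM with harmine (log2 fold change 0.45 ± 0.03, adjusted p = 1.38e-10). FN1, the matrix protein fibronectin, read 898, 1184, 1151 and 802 CPM with water and 1849, 1982, 1835 and 1845 CPM with harmine, with water replicates 1 and 4 below 2 and 3 (log2 fold change 0.90 ± 0.10, adjusted p = 3.84e-07). COL4A2, a basement membrane collagen, rose from 1899 ± 213 to 2722 ± 43.9 CPM, ACTB, cytoplasmic beta actin, from 4649 ± 95.8 to 5444 ± 70.2 CPM, and SCD, the desaturase that makes oleic acid, from 1053 ± 19.9 to 1643 ± 24.1 CPM. The mitochondrial mRNAs MT-ND4 and MT-ND2 and the glycolytic enzyme GAPDH complete the 8 largest gains, with log2 fold changes of 0.36 ± 0.10, 0.32 ± 0.08 and 0.14 ± 0.04. Each lost its call without a pair of water libraries, MT-ND4 and MT-ND2 without replicates 2 and 3 (0.28, adjusted p = 0.0648, and 0.30, adjusted p = 0.0149) and GAPDH without replicates 1 and 4 (0.07, adjusted p = 0.154). The calls of MT-ND4 and GAPDH were also lost without any of several single libraries of either group, with adjusted p up to 0.0171 and 0.0129. Among the losses, TIMP1, an inhibitor of metalloproteinases, read 990, 924, 902 and 958 CPM with water and 590, 615, 596 and 624 CPM with harmine (log2 fold change -0.64 ± 0.04, adjusted p = 2.02e-10). HSPA5, the chaperone BiP of the endoplasmic reticulum, read 707, 730, 713 and 692 CPM with water and 407, 406, 404 and 408 CPM with harmine (log2 fold change -0.81 ± 0.03, adjusted p = 4e-14). SQSTM1, the autophagy receptor p62, read 696, 642, 638 and 765 CPM with water and 386, 392, 392 and 394 CPM with harmine (log2 fold change -0.81 ± 0.05, adjusted p = 3.38e-10). B2M, the light chain of HLA class I, fell from 1277 ± 65.7 to 994 ± 12.3 CPM. HNRNPA1, NEAT1 and APP also stood among the 8 largest losses (-0.41 ± 0.08, -0.41 ± 0.11 and -0.27 ± 0.06). Their calls were lost without water replicates 2 and 3 for HNRNPA1 (-0.30, adjusted p = 0.0106) and without replicates 1 and 4 for NEAT1 (-0.24, adjusted p = 0.112) and APP (-0.16, adjusted p = 0.0512). NEAT1, a noncoding RNA that builds nuclear paraspeckles, also missed the threshold without water replicate 1 or 4 or harmine replicate 2 or 4 (adjusted p up to 0.0198).

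Of the proteins harmine is known to bind, DYRK1A kept its mRNA level while the mRNA of monoamine oxidase A fell. Among DYRK and CLK kinases of 9 members tested 3 were higher and 1 lower, with a median log2 fold change of 0.06. DYRK1A read 19.5, 18.8, 18.3 and 20 CPM with water and 19.2, 18, 17.3 and 17.4 CPM with harmine, with overlapping groups (log2 fold change -0.09 ± 0.05, adjusted p = 0.153). DYRK1B, its closest relative, read 1.83, 2.02, 2.26 and 1.56 CPM with water and 2.59, 3.09, 3.69 and 3.4 CPM with harmine and rose (log2 fold change 0.73 ± 0.13, adjusted p = 0.000104). DYRK4 and CLK2 rose too (0.41 ± 0.06 and 0.41 ± 0.04). CLK4 fell by 0.28 on the log2 scale with overlapping groups, a call lost without water replicates 1 and 4 (-0.17, adjusted p = 0.121) and without 5 of the 8 single libraries (adjusted p from 0.0102 to 0.0235). DYRK2, DYRK3, CLK1 and CLK3 were not called, with log2 fold changes between -0.20 and 0.09. MAOA, the oxidase of serotonin and noradrenaline, read 12, 13.1, 12.7 and 14.3 CPM with water and 9.89, 8.01, 8.16 and 8.54 CPM with harmine (log2 fold change -0.60 ± 0.07, adjusted p = 6.75e-07), and MAOB, which favours phenylethylamine, read 1.48, 1.95, 1.88 and 2.07 CPM with water and 1.21, 1.13, 0.981 and 1.43 CPM with harmine (log2 fold change -0.64 ± 0.16, adjusted p = 0.00204). Without water replicates 2 and 3 MAOB was at -0.58 (adjusted p = 0.0233), without harmine replicate 3 at -0.56 (adjusted p = 0.0103), and by limma voom it was not called (adjusted p = 0.0125). SULT1A1, a sulfotransferase of phenols, fell from 2.23 ± 0.0792 to 1.01 ± 0.0851 CPM, ALDH3A2, a fatty aldehyde dehydrogenase, fell slightly (-0.23 ± 0.04), and AKR1A1, an aldehyde reductase, rose (0.21 ± 0.04). DDC, ALDH2, AKR1B1 and SULT1A3 were not called, with log2 fold changes from -0.17 to 0.28. SULT1A3 is uncertain because 79.6% of its sequence is shared.

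Planar plant alkaloids can also meet the aryl hydrocarbon receptor, the ligand-activated factor that induces CYP1A1, and DYRK1A opposes calcineurin, so both axes were read. CYP1A1, the main xenobiotic monooxygenase of that receptor, was lower with harmine, at 31.9, 31.7, 30.9 and 31.1 CPM with water and 18.3, 20.3, 18.2 and 19.3 CPM with harmine (log2 fold change -0.72 ± 0.05, adjusted p = 1.33e-09). TIPARP, a feedback inhibitor of the receptor, and NQO1, a quinone reductase, were lower as well (-0.29 ± 0.06 and -0.33 ± 0.05). ALDH3A1 passed the threshold upwards only narrowly (log2 fold change 0.38 ± 0.12, adjusted p = 0.00944), and missed it in every alternative analysis at that threshold except limma voom, with adjusted p from 0.0101 to 0.0651. ARNT and AHRR were not called (-0.07 and -0.19). AHRR read 0.622, 3.3, 4.89 and 0.649 CPM with water and 0.87, 1.07, 5.59 and 0.876 CPM with harmine, with water replicates 2 and 3 and harmine replicate 3 far above the other libraries, and 56.2% of its sequence is shared with another gene. In the calcineurin and NFAT list 4 of 13 members tested were higher and 5 lower (median 0.08). RCAN1 and RCAN2, which bind and inhibit calcineurin, both fell. RCAN2 went from 11.8, 10.8, 9.76 and 10.1 CPM to 6.39, 6.6, 4.91 and 6.21 CPM (log2 fold change -0.82 ± 0.08, adjusted p = 7.13e-08). RCAN1, which NFAT induces, fell by 0.44 on the log2 scale. PPP3CB, a catalytic subunit of calcineurin, rose (0.36 ± 0.04).

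Genes of innate immunity fell as a group. In 42 interferon-stimulated genes tested, 32 (76.2%) were lower and 1 higher with harmine, with a median log2 fold change of -0.56. These genes are switched on when interferon binds its receptor, and a low basal level is kept in many cell lines. RSAD2 (chromosome 2, 6865557-6898239, plus strand), the antiviral enzyme viperin, read 5.66, 4.73, 4.32 and 7.75 CPM with water and 0.343, 0.451, 0.648 and 0.239 CPM with harmine, a fall of 13.2-fold in which the highest harmine library was below 1 CPM (log2 fold change -3.72 ± 0.25, adjusted p = 5.12e-10). IFIT1, which binds viral RNA lacking cap methylation, read 9.37, 10.3, 9.64 and 9.59 CPM with water and 3.27, 3.18, 3.02 and 2.99 CPM with harmine (log2 fold change -1.64 ± 0.15, adjusted p = 3.64e-08). IFITM1, a membrane protein that blocks virus entry, fell at a low level from 0.447, 0.636, 0.7 and 0.789 CPM to 0.183, 0.357, 0.216 and 0.0398 CPM (log2 fold change -1.67 ± 0.43, adjusted p = 0.0027), and this call was lost without water replicates 2 and 3 (-1.62, adjusted p = 0.0179). IFIT3, a partner of IFIT1, and ISG20, an exonuclease, chosen after their values were seen, fell from 68.8 ± 1.86 to 26.3 ± 0.809 CPM and from 25.5 ± 2.04 to 9.27 ± 0.465 CPM. The only member called higher was TRIM22 (0.14 ± 0.04), also named after its value was seen, and its call was lost without each single library but water replicate 4 (adjusted p up to 0.0419). It was also lost without either pair of water libraries, with the replicate block, by DESeq2, and with other scaling or filters (adjusted p from 0.0106 to 0.0923). Promoters of this group are shown because 61.3% of the 31 list members with a RefSeq promoter held GAAANNGAA, the core of the interferon response element, on either strand. The share was 8.29% of all 27305 promoters and 6.59% of the 12024 tested protein-coding genes with one. The 250 bases before the start in RefSeq (GRCh38.p14) are shown. RefSeq starts differ from GENCODE ones, so that the stretches of RSAD2, IFIT3 and ISG20 lie within the GENCODE genes. They run 5′ to 3′ on the strand of the gene, with each match in capitals, for RSAD2 (chr2:6865635-6865884, plus strand), IFIT1 (chr10:89392373-89392622, plus strand), IFIT3 (chr10:89327747-89327996, plus strand) and ISG20 (chr15:88638766-88639015, plus strand).
RSAD2: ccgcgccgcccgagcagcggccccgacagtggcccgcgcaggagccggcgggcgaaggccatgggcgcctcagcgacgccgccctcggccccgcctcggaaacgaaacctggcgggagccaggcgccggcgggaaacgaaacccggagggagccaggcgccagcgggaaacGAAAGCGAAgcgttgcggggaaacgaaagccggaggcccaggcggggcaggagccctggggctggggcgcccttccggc
IFIT1: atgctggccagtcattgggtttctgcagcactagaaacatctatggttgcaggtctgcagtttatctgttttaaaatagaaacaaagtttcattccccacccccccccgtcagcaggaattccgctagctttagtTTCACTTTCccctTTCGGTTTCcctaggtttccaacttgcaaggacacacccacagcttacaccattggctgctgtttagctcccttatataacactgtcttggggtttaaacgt
IFIT3: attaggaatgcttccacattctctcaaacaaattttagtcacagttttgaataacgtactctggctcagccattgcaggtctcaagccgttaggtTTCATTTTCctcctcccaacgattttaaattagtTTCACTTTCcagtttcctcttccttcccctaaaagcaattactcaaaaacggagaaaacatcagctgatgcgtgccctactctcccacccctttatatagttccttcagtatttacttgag
ISG20: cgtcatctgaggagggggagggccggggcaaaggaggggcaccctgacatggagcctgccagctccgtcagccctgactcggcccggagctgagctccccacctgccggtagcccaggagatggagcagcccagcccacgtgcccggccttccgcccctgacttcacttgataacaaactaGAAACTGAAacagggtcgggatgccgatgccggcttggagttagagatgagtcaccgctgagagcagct
The match begins 79 bases before the start in RSAD2 and 69 before it in ISG20, and the 2 matches of IFIT1 begin 115 and 102 bases before it and those of IFIT3 155 and 121 bases before it. A match describes the letters and not a bound site.

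Cytokines, NF-kB targets and antigen presentation shifted the same way. Of 44 chemokines, interleukins and members of the IL6 family tested, 25 were lower and 3 higher (median -0.54). CXCL10, a chemokine that interferon induces, read 0.233, 0.341, 0.417 and 0.543 CPM with water and 0, 0.0564, 0.0785 and 0 CPM with harmine. CXCL8, which attracts neutrophils, read 6.88, 6.03, 5.93 and 5.92 CPM with water and 2.15, 2.01, 1.86 and 1.85 CPM with harmine (log2 fold change -1.65 ± 0.10, adjusted p = 1.23e-10). CXCL10 had no count in 2 of the harmine libraries and its log2 fold change of -3.37 ± 0.60 rests on few counts. CXCL14, a chemokine of epithelia, went the other way at 0.447, 0.605, 0.492 and 0.245 CPM with water and 1.99, 2.48, 2.22 and 2.79 CPM with harmine (log2 fold change 2.39 ± 0.28, adjusted p = 7.75e-07). In the NF-kB list 18 of 28 members tested were lower and 2 higher (median -0.39), and VCAM1, an adhesion molecule for leukocytes, fell from 2.81 ± 0.0949 to 0.895 ± 0.138 CPM. ICAM1, another such molecule, fell from 0.795 ± 0.118 to 0.262 ± 0.168 CPM, a call lost without water replicates 1 and 4 (-1.43, adjusted p = 0.013). BIRC3, a ubiquitin ligase that limits cell death downstream of TNF receptors, was abundant and read 325, 305, 315 and 320 CPM with water and 165, 151, 159 and 157 CPM with harmine (log2 fold change -1.0 ± 0.05, adjusted p = 4.03e-12). In the TNF superfamily 10 of 27 members tested were lower and 5 higher (median -0.12). Beside LTA, which rose, its partner LTB fell from 15.1 ± 3.51 to 5.11 ± 0.62 CPM, and TNFRSF9, the costimulatory receptor 4-1BB, fell from 19.6 ± 2.92 to 5.76 ± 0.361 CPM. Among genes of antigen presentation 16 of 24 members tested were lower and 0 higher (median -0.32), with HLA-DMA, a chaperone of class II, and the class II chains HLA-DRB1 and HLA-DRA lower (-0.89 ± 0.12, -1.1 ± 0.20 and -1.23 ± 0.38). The groups of HLA-DRA overlapped, and its call was lost without water replicates 1 and 4 (adjusted p = 0.0784) and without 6 of the 8 single libraries (adjusted p up to 0.0389). It was also lost with the replicate block (adjusted p = 0.0119), by DESeq2 (adjusted p = 0.0205) and with no filter (adjusted p = 0.021).

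Sterol enzymes fell together and enzymes of fatty acids did not. Cholesterol is made from acetyl-CoA by a chain of enzymes that SREBP2 switches on when sterols are low. In the list of its synthesis and uptake 18 of 24 members tested were lower and 1 higher (median -0.43), and the library levels of the list did not overlap between groups. STARD4, which carries cholesterol through the cytosol, read 192, 178, 180 and 188 CPM with water and 114, 108, 109 and 105 CPM with harmine (log2 fold change -0.76 ± 0.04, adjusted p = 5.47e-12). CYP51A1, the lanosterol demethylase, had a log2 fold change of -0.66 ± 0.05, uncertain because 66% of its sequence occurs in another gene. HMGCS1, which makes HMG-CoA, and MSMO1, a sterol C4 oxidase, named after their values were seen, fell from 280 ± 10.8 to 191 ± 4.83 CPM and from 140 ± 9.79 to 89.2 ± 2.76 CPM. TM7SF2, a sterol reductase seen afterwards, was the only member higher (0.47 ± 0.10). Promoters of 3 members are shown for CCAAT, the box that NF-Y binds next to SREBP, which stood in 83.3% of the 18 list members with a promoter, against 36.4% of the tested protein-coding genes with one and 35.7% of all promoters. They are STARD4 (chr5:111512536-111512785, minus strand), HMGCS1 (chr5:43313413-43313662, minus strand) and MSMO1 (chr4:165327419-165327668, plus strand), the 250 bases before the start with matches on either strand in capitals.
STARD4: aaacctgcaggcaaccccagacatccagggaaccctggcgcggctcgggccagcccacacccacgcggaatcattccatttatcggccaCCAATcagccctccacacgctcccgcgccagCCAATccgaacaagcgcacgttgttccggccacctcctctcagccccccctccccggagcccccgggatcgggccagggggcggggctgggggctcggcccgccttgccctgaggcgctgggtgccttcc
HMGCS1: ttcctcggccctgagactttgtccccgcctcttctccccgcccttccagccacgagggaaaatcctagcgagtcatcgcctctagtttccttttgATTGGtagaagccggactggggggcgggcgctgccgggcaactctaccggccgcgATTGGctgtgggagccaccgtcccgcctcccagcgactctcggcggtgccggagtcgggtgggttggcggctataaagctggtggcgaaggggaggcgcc
MSMO1: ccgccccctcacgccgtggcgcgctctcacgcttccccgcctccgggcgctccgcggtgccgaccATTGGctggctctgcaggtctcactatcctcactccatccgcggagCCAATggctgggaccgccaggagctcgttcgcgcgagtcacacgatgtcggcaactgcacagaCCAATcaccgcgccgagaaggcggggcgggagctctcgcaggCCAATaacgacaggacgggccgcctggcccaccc
The sterol element TCACNCCAC, searched on both strands, was in 1 of the 18 promoters of the list (5.56%), against 1.13% of tested protein-coding genes with a promoter and 1.15% of all promoters. In fatty acid synthesis 10 of 24 members tested were higher and 10 lower (median 0.00), 6 being lower without water replicates 1 and 4, with SCD higher (log2 fold change 0.64 ± 0.04, adjusted p = 2.35e-10) and ME1, malic enzyme, and ACSL5, which activates fatty acids, lower (-0.65 ± 0.08 and -0.63 ± 0.08). In fatty acid oxidation and PPAR targets 7 of 25 members tested were lower and 6 higher (median -0.03), 3 being lower without water replicates 1 and 4. PPARG, the receptor that drives fat storage, fell from 25 ± 2.93 to 15.5 ± 0.719 CPM, and UCP2, a mitochondrial carrier, rose from 9.1 ± 0.898 to 14.7 ± 0.723 CPM.

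Glutathione and ER chaperone lists held more lower than higher members, and heat shock and ATF4 lists held members of both directions. In the glutathione and NRF2 list 17 of 26 members tested were lower and 3 higher (median -0.34). OSGIN1, an oxidative stress growth inhibitor, read 8.32, 8.19, 8.45 and 8.26 CPM with water and 3.23, 3.12, 3.3 and 2.95 CPM with harmine (log2 fold change -1.4 ± 0.06, adjusted p = 1.86e-12). AKR1C3, a ketosteroid reductase, read 12.6, 8.69, 8.58 and 13.3 CPM with water and 4.42, 4.91, 4.51 and 4.04 CPM with harmine (log2 fold change -1.26 ± 0.15, adjusted p = 1.18e-06), with water replicates 1 and 4 higher than 2 and 3. SLC7A11, the cystine importer that feeds glutathione, read 61.1, 60.6, 62 and 53.7 CPM with water and 24.9, 30, 32.5 and 29.9 CPM with harmine (log2 fold change -1.01 ± 0.15, adjusted p = 1.12e-05). FTL, the ferritin light chain, fell from 423 ± 24.1 to 248 ± 4.35 CPM. Of the iron list 6 of 13 members tested were lower and 2 higher (median -0.09). Of ER chaperones 19 of 30 members tested were lower and 2 higher (median -0.18), led by HSPA5, with DNAJC3 and DNAJB9, its J-domain partners, at -0.37 ± 0.04 and -0.35 ± 0.05. In the ATF4 amino acid response 8 of 29 members tested were lower and 3 higher (median -0.06), with CHAC1, which degrades glutathione, and DDIT3, the factor CHOP, at -0.82 ± 0.15 and -0.78 ± 0.05. Of cytosolic heat shock proteins 10 of 25 members tested were lower and 6 higher (median -0.06), 3 being higher without water replicates 1 and 4. HSPB8, a small chaperone that hands clients to autophagy, read 57.5, 52.9, 50.9 and 68.7 CPM with water and 16.8, 16.6, 16.3 and 16.1 CPM with harmine (log2 fold change -1.81 ± 0.11, adjusted p = 1.37e-10).

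Lysosome and autophagy genes were lower in most members called. For lysosomal enzymes 19 of 36 members tested were lower and 5 higher (median -0.11). TFEB and TFE3, the factors that switch on lysosomal genes, fell from 9.32 ± 0.643 to 5.27 ± 0.255 CPM and from 167 ± 8.75 to 120 ± 2.14 CPM, while FUCA1, a fucosidase that p53 also induces, rose from 40.5 ± 1.67 to 69.5 ± 2.72 CPM. In the V-ATPase, the proton pump of lysosomes, 8 of 17 members tested were lower and 3 higher (median -0.17), with the subunit isoforms ATP6V0A2 and ATP6V0A1 in opposite directions (0.74 ± 0.04 and -0.52 ± 0.03). In autophagy 15 of 35 members tested were lower and 6 higher (median -0.08). GABARAPL1, an ATG8 protein of the autophagosome membrane, read 153, 142, 134 and 158 CPM with water and 60.5, 57.1, 59.7 and 56.6 CPM with harmine (log2 fold change -1.33 ± 0.08, adjusted p = 5.99e-11). Water replicate 3 was the lowest of its group yet more than 2 times every harmine library. Of proteasome subunits 13 of 32 members tested were lower and 3 higher (median -0.09), the 13 that fell including PSMC6 (-0.33 ± 0.03), PSMA4 (-0.30 ± 0.03) and PSMD12 (-0.29 ± 0.03). Of chaperonin and prefoldin subunits 6 of 14 members tested were higher and 4 lower (median 0.05), with 2 higher without water replicates 1 and 4, and of COPI, COPII and Golgi traffic 12 of 34 members tested were higher and 10 lower (median 0.05). Among metallothioneins and zinc carriers 7 of 17 members tested were lower and 5 higher (median -0.06), with MT1E and MT1X, small metal-binding proteins, higher (1.36 ± 0.13 and 0.97 ± 0.12).

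**Figure D3:**
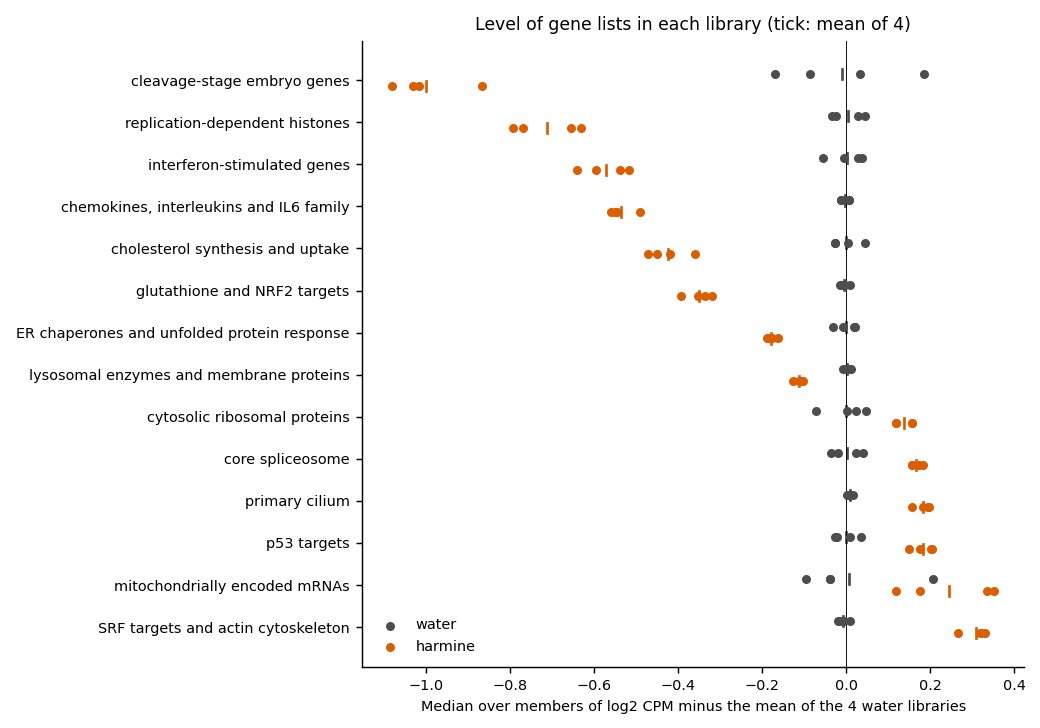
Level of 14 gene lists in each library, taken as the median member after the mean log2 CPM of the 4 water libraries was set to 0, with water in grey, harmine in orange and a tick at the mean of each group. Groups do not overlap except for mitochondrially encoded mRNAs, where water replicate 4 lies among the harmine libraries.

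The actin cytoskeleton rose. SRF and its cofactors of the MRTF family sense free actin and switch on genes of stress fibres, and in that list 23 of 35 members tested were higher and 7 lower (median 0.31). ACTA2, smooth muscle alpha actin, read 10.7, 10.5, 9.45 and 10.4 CPM with water and 30.1, 31.4, 27.2 and 29.9 CPM with harmine, with no overlap (log2 fold change 1.53 ± 0.07, adjusted p = 7.05e-12). ACTN1, an actinin, and TPM1, a tropomyosin, named after their values were seen, rose from 966 ± 14.7 to 1535 ± 24.6 CPM and from 139 ± 7.56 to 231 ± 8.54 CPM. CNN1, a calponin of smooth muscle, and LIMA1, an actin-bundling protein, fell from 2.2 ± 0.136 to 1.17 ± 0.157 CPM and from 87.2 ± 7.19 to 48.5 ± 1.11 CPM. Of YAP and TEAD targets 10 of 26 members tested were higher and 6 lower (median 0.03). TEAD1, the DNA-binding partner of YAP, read 127, 127, 126 and 134 CPM with water and 226, 226, 219 and 215 CPM with harmine (log2 fold change 0.79 ± 0.03, adjusted p = 1.99e-12). F3, tissue factor, rose from 9.63 ± 0.515 to 17.3 ± 0.317 CPM. Among tubulins and microtubule proteins 16 of 30 members tested were lower and 11 higher (median -0.15), which together is 90.0% of the list. Without water replicates 1 and 4, 7 were higher, without 2 and 3, 9 were lower, and without water replicate 3 alone 10 were. MAP1A, a neuronal microtubule protein, read 79.1, 76.1, 73.1 and 94.1 CPM with water and 25.8, 26.4, 26.4 and 26.3 CPM with harmine (log2 fold change -1.62 ± 0.07, adjusted p = 7.28e-13).

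Matrix and adhesion genes changed in both directions. In laminins and matrix glycoproteins 11 of 32 members tested were higher and 9 lower (median 0.04). THBS1, the matrix protein thrombospondin 1, read 164, 175, 177 and 165 CPM with water and 442, 421, 397 and 407 CPM with harmine (log2 fold change 1.29 ± 0.04, adjusted p = 1.13e-14). In collagen chains 10 of 32 members tested were higher and 10 lower (median -0.09). COL5A3 fell from 55.3, 46.1, 45 and 68.3 CPM to 19.6, 17.4, 18.2 and 18.1 CPM (log2 fold change -1.55 ± 0.16, adjusted p = 1.87e-07). COL15A1 and COL3A1 fell at low levels (-1.33 ± 0.29 and -1.3 ± 0.24), and COL4A2 rose as given above. Among enzymes that modify collagen 13 of 29 members tested were lower and 6 higher (median -0.02), 3 being higher without water replicates 1 and 4, with LOXL1 higher (1.15 ± 0.07) and LOXL3 lower (-1.0 ± 0.07). In metalloproteinases and inhibitors 16 of 33 members tested were lower and 11 higher (median -0.19). Of integrin chains 6 of 18 members tested were higher and 5 lower (median 0.06). ITGB3 and ITGB4 were higher (1.58 ± 0.06 and 0.69 ± 0.08), the former uncertain because 32.1% of its sequence is shared. ITGB8 was lower (-0.82 ± 0.17), a call lost without water replicates 1 and 4 (-0.43, adjusted p = 0.0162). In proteoglycans and hyaluronan 7 of 24 members tested were higher and 5 lower (median 0.12), with HAS2, a hyaluronan synthase, higher (1.22 ± 0.11) and LUM, the collagen-binding lumican, lower (-1.06 ± 0.11).

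Adhesion genes of the cadherin superfamily fell in clusters. In the family of CDH and PCDH genes 39 of 81 tested were lower and 9 higher. The alpha, beta and gamma protocadherins lie in 3 clusters on chromosome 5 and give neurons a cell-specific set of surface labels. After these values were seen the family was split by cluster. In the beta cluster 14 of 15 genes were lower and 0 higher, with a median log2 fold change of -1.07. Their summed level was 62.9, 71.5, 69.2 and 63.3 CPM with water and 32.1, 33.1, 33.4 and 32.9 CPM with harmine. In the alpha cluster 9 of 15 were lower and 0 higher (median -0.79), with summed levels of 73.2 to 76.8 CPM and 43.2 to 46.1 CPM. In the gamma cluster 4 of 20 were lower and 1 higher (median -0.22), and the 17 tested genes named CDH held 6 higher and 4 lower. Genes of the alpha and of the gamma cluster share their last exons, so that reads there cannot be told apart and the values of single members are uncertain. Outside the clusters PCDH1, of epithelia, rose (1.48 ± 0.06), PCDH18 fell (-1.67 ± 0.20), and CDH1, epithelial cadherin, fell at a low level from 0.505, 0.341, 0.328 and 0.508 CPM to 0.137, 0.0752, 0.0589 and 0.159 CPM (log2 fold change -1.95 ± 0.38, adjusted p = 0.00024).

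Ligands and receptors of growth control changed in both directions. In receptor tyrosine kinases and their ligands 19 of 58 members tested were lower and 14 higher (median -0.09). GAS6, the ligand of AXL, read 403, 434, 429 and 401 CPM with water and 922, 958, 972 and 983 CPM with harmine (log2 fold change 1.2 ± 0.04, adjusted p = 2.07e-13). NTRK3, the receptor of neurotrophin 3, and PDGFD, a platelet-derived growth factor, fell from 1.57 ± 0.238 to 0.394 ± 0.0709 CPM and from 3.65 ± 0.329 to 1.31 ± 0.106 CPM. In the TGF-beta list 11 of 31 members tested were lower and 10 higher (median -0.02), with the ligands INHBA and TGFB2 higher, from 88.1 ± 9.4 to 192 ± 12.9 CPM and from 21.7 ± 1.03 to 45.2 ± 1.45 CPM. Of the BMP list 11 of 33 members tested were lower and 4 higher (median -0.09). NOG, the secreted BMP antagonist noggin, rose from 20.4 ± 1.42 to 50.9 ± 3.67 CPM while the target ID1 fell from 11.9 ± 0.379 to 7.97 ± 0.79 CPM. Of the Wnt list 14 of 48 members tested were lower and 9 higher (median -0.04), with WNT7B and WNT2B lower (-1.29 ± 0.09 and -1.14 ± 0.08) and LGR5, a receptor of R-spondins, higher (1.4 ± 0.21). In the Hedgehog list 6 of 18 members tested were higher and 2 lower (median 0.10), with HHIP, a decoy of the ligands, higher (log2 fold change 1.76 ± 0.12, adjusted p = 4.06e-10). In the Notch list 7 of 25 members tested were higher and 5 lower (median -0.02), with RBPJ, its DNA-binding partner, higher (0.88 ± 0.05), HES7, a target, lower (-1.4 ± 0.21), and DLL4 called only narrowly (log2 fold change 1.01 ± 0.30, adjusted p = 0.00813) and lost without 6 of the 8 single libraries (adjusted p up to 0.0333), without either pair of water libraries (adjusted p = 0.0426 and 0.0302) and by DESeq2 (adjusted p = 0.0153). In the IGF list 5 of 14 members tested were higher and 4 lower (median -0.08), with IGFBP7 higher, from 17.5 ± 2.24 to 48.5 ± 1.63 CPM, and PAPPA2, a protease of IGF-binding proteins, lower, from 23 ± 1.87 to 7.5 ± 0.435 CPM.

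Immediate early and feedback genes of the ERK pathway gave no common direction. Among immediate early genes 9 of 30 members tested were higher and 7 lower (median 0.02). EGR1, the serum-induced zinc finger factor, read 87.5, 91.3, 96.4 and 106 CPM with water and 39.2, 40.9, 47.1 and 47.2 CPM with harmine (log2 fold change -1.13 ± 0.11, adjusted p = 8.34e-08). NR4A3, an orphan nuclear receptor, was lower (-1.4 ± 0.18) and IER5L higher (1.28 ± 0.11). Of ERK feedback genes 9 of 28 members tested were higher and 9 lower (median -0.09), with 5 lower without water replicates 1 and 4. Among them were HMGA2, a chromatin protein, and PHLDA1, both higher (1.0 ± 0.09 and 0.85 ± 0.05). In cAMP and CREB targets 12 of 30 members tested were lower and 8 higher (median 0.01), with 5 higher without water replicates 1 and 4. In insulin, FOXO and mTOR signalling 14 of 39 members tested were lower and 8 higher (median -0.08), with DEPTOR, an inhibitor inside mTOR complexes, lower (-0.74 ± 0.11). In the circadian clock 9 of 23 members tested were lower and 3 higher (median -0.04). There NPAS2, a relative of CLOCK, rose from 37.6 ± 1.85 to 76.6 ± 2.4 CPM, and NR1D1 and PER1, repressors of the loop, fell from 55 ± 0.457 to 35.8 ± 1.39 CPM and from 44.3 ± 1.04 to 31.3 ± 0.907 CPM.

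Guidance and channel genes showed single large changes in lists without a common direction. In ephrins and Eph receptors 7 of 17 members tested were lower and 5 higher (median -0.29), with the receptor EPHB1 higher (log2 fold change 1.55 ± 0.05, adjusted p = 7.79e-14) and EPHA4 lower (log2 fold change -0.85 ± 0.07, adjusted p = 7.9e-09). For semaphorins and plexins 14 of 41 members tested were higher and 13 lower (median -0.04), 9 being higher without water replicates 1 and 4, with PLXNA4 higher (1.41 ± 0.13) and SEMA3C, a secreted guidance cue, lower, from 35.3 ± 5.43 to 13.6 ± 0.95 CPM. Of potassium channels 13 of 41 members tested were lower and 9 higher (median -0.10). KCNJ6, a channel opened by G proteins, read 0, 0.0776, 0.0298 and 0 CPM with water and 0.481, 0.583, 0.804 and 0.816 CPM with harmine and was at 0 in 2 water libraries. Its log2 fold change of 4.43 ± 0.54 ranged from 3.59 to 8.15 when a pair of water libraries was left out. Of calcium channels, pumps and sensors 18 of 52 members tested were lower and 13 higher (median -0.05), 8 being higher without water replicates 1 and 4, with ATP2B4, a calcium pump of the plasma membrane, lower (log2 fold change -0.86 ± 0.04, adjusted p = 2.46e-12). Among amino acid and monocarboxylate carriers 13 of 35 members tested were lower and 6 higher (median -0.08), 3 being higher without either pair of water libraries. Among ABC transporters 8 of 29 members tested were higher and 6 lower (median -0.03), 5 being higher without water replicates 1 and 4. ABCB1, the multidrug exporter, fell from 23 ± 0.36 to 11.8 ± 0.796 CPM, and ABCG1, which exports cholesterol, rose from 23.1 ± 1.44 to 37.1 ± 0.433 CPM. Solute carriers by symbol held 58 higher (22.5%) and 85 lower (32.9%) of 258 tested.

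Of the genes that process RNA, those of the core spliceosome and of polyadenylation rose by small amounts more often than they fell. In the core spliceosome 18 of 31 members tested were higher and 4 lower (median 0.17), with SF3A2, of the U2 particle, and SNRPA, of the U1 particle, higher (0.49 ± 0.05 and 0.38 ± 0.03). SR proteins, which CLK kinases phosphorylate, moved less and downwards, since 6 of 15 members tested were lower and 2 higher (median -0.09), with SRSF8 lower (-0.29 ± 0.03) and SRRM2, a large scaffold of nuclear speckles, higher (0.26 ± 0.05). For hnRNP proteins 6 of 24 members tested were lower and 5 higher (median -0.03). For cleavage and polyadenylation 8 of 18 members tested were higher and 2 lower (median 0.11), and for the exon junction complex and nonsense-mediated decay 5 of 16 members tested were higher and 2 lower (median 0.02). CPSF3, the endonuclease, read 47.8, 46.6, 48.9 and 45.8 CPM with water and 73.5, 75.7, 73.3 and 70.8 CPM with harmine (log2 fold change 0.63 ± 0.04, adjusted p = 2.82e-10). Of RNA polymerase II and its elongation factors 9 of 34 members tested were higher and 6 lower (median -0.04), with HEXIM1, which holds P-TEFb inactive, lower (-0.51 ± 0.04). Of Mediator subunits 11 of 32 members tested were higher and 8 lower (median 0.03), 7 being higher without water replicates 1 and 4, and of SWI/SNF remodellers 8 of 20 members tested were higher and 2 lower (median 0.06), with 5 higher without water replicate 1, harmine replicate 2 or either pair of water libraries. Of Polycomb proteins 8 of 27 members tested were higher and 7 lower (median 0.03) and of histone deacetylases and sirtuins 6 of 18 members tested were higher and 3 lower (median 0.09).

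Of 79 cytosolic ribosomal proteins tested 47 (59.5%) were higher and 0 lower, with a median log2 fold change of 0.13. RPS15 rose most, from 329, 316, 303 and 301 CPM to 405, 431, 433 and 455 CPM (log2 fold change 0.47 ± 0.04, adjusted p = 1.57e-08), and RPL15 and RPS23 by 0.29 and 0.28 on the log2 scale. Without water replicates 1 and 4, 35 were higher and 2 lower, and without replicates 2 and 3, 52 and 0. For ribosome biogenesis 11 of 50 members tested were higher and 8 lower (median -0.01), with 6 higher without water replicates 1 and 4 and 5 lower without 2 and 3, and for initiation factors 12 of 39 members tested were higher and 10 lower (median 0.03). For tRNA synthetases 8 of 20 members tested were lower and 3 higher (median 0.01). WARS1, the enzyme for tryptophan that interferon induces, fell from 98.6 ± 6.71 to 63.5 ± 1.67 CPM, and QARS1, for glutamine, rose from 512 ± 14.1 to 657 ± 11.4 CPM. Mitochondrial ribosomal proteins were higher in 37 of 78 and lower in 10 (median 0.06), and nuclear subunits of oxidative phosphorylation in 21 and 14 of 72 (median 0.06), the latter with 9 lower without water replicate 2 or harmine replicate 1 and 8 without water replicates 2 and 3. Mitochondrially encoded mRNAs were higher in 6 of 13 (median 0.22). MT-ND5, a subunit of complex I, read 897, 950, 991 and 1096 CPM with water and 1194, 1215, 1418 and 1401 CPM with harmine (log2 fold change 0.41 ± 0.11, adjusted p = 0.00264). Its call was lost without water replicates 1 and 4 (adjusted p = 0.0148) or 2 and 3 (adjusted p = 0.0239), and without water replicate 1 or harmine replicate 3 or 4 (adjusted p up to 0.0117). Water replicate 4 lay near the harmine libraries, and without water replicates 2 and 3 none of the 13 was called. Leaving out water replicate 1 or 2 or harmine replicate 3 or 4 left 2 or 3 of them.

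Central metabolism was split. In glycolysis 7 of 24 members tested were lower and 3 higher (median -0.01), with SLC2A3, a glucose carrier, lower (log2 fold change -0.62 ± 0.04, adjusted p = 3.47e-10) and PFKL, phosphofructokinase, higher (0.52 ± 0.06). In the hypoxia response 9 of 23 members tested were lower and 7 higher (median -0.03). PLOD2, a lysyl hydroxylase, read 130, 119, 120 and 129 CPM with water and 66.5, 65.2, 65.3 and 67.3 CPM with harmine (log2 fold change -0.92 ± 0.04, adjusted p = 8.14e-13), and ADM, the peptide adrenomedullin, rose (1.1 ± 0.15). Of the tricarboxylic acid cycle 9 of 25 members tested were higher and 8 lower (median -0.03), with IDH2 higher and PC, pyruvate carboxylase, lower (0.66 ± 0.08 and -0.60 ± 0.11). In folate and serine metabolism 5 of 23 members tested were higher and 5 lower (median -0.06). TYMS, the enzyme of thymidylate synthesis and a known E2F target, read 367, 393, 392 and 356 CPM with water and 619, 604, 593 and 610 CPM with harmine (log2 fold change 0.69 ± 0.03, adjusted p = 3.82e-12). Of polyamine metabolism 3 of 12 members tested were higher and 3 lower (median -0.12). SAT1, which acetylates spermidine for export, read 25.1, 24.2, 22.8 and 23.9 CPM with water and 50.4, 48.6, 47.3 and 47.7 CPM with harmine (log2 fold change 1.02 ± 0.04, adjusted p = 7.25e-13), and ARG2, which makes ornithine, fell (-0.95 ± 0.11). Of peroxisomal genes 11 of 28 members tested were higher and 5 lower (median 0.08), 2 being lower without water replicates 2 and 3, with ACAA1, a thiolase, higher, from 41.3 ± 0.83 to 76.4 ± 1.76 CPM.

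Histone mRNAs of the replication-dependent clusters fell. These genes are transcribed in S phase and their mRNAs usually end in a stem-loop without a poly(A) tail, so a poly(A)-selected library sees only tailed forms. Of this list 15 of 26 members tested were lower and 1 higher (median -0.69). H2BC4 read 6.37, 6.48, 5.54 and 5.47 CPM with water and 1.76, 1.98, 2.04 and 1.53 CPM with harmine (log2 fold change -1.7 ± 0.11, adjusted p = 1.55e-10). H4C5 fell from 1.19 ± 0.242 to 0.396 ± 0.0703 CPM, and H1-4 had a log2 fold change of -1.53 ± 0.39, lost without water replicates 1 and 4 (-1.45, adjusted p = 0.0132), without water replicate 4 alone (adjusted p = 0.0106) and without harmine replicate 4 (adjusted p = 0.0111). H2BC21 and H2AC6, chosen after their values were seen as the abundant members, fell from 53.9 ± 0.845 to 22.7 ± 0.481 CPM and from 48.9 ± 2.56 to 26.7 ± 0.633 CPM. Their promoters are shown because CCAAT stood in 76.0% of the 25 list members with a promoter and TATAAA in 68.0%, against 36.4% and 6.47% of tested protein-coding genes with one and 35.7% and 12% of all promoters. For H2BC21 (chr1:149886683-149886932, minus strand) and H2AC6 (chr6:26123922-26124171, plus strand) the 250 bases before the start follow, with CCAAT on either strand in capitals.
H2BC21: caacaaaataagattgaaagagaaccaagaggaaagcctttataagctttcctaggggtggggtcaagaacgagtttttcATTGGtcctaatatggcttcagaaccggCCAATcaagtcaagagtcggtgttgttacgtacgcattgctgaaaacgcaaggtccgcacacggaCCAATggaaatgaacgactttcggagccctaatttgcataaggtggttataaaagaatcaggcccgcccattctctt
H2AC6: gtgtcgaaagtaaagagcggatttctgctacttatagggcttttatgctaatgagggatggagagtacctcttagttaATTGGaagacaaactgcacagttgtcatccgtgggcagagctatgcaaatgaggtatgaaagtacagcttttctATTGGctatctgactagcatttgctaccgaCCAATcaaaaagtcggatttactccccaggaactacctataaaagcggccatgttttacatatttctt
Both hold 3 matches, beginning 170, 142 and 77 bases before the start in H2BC21 and 172, 98 and 68 bases before it in H2AC6.

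More embryonic and homeotic genes were lower than higher. In the list of genes of the cleavage-stage embryo, a set that the factor DUX4 induces, 16 of 19 members tested were lower and 0 higher, with a median of -1.08. CCNA1, a cyclin of the germ line, read 0.272, 0.496, 0.343 and 0.666 CPM with water and 0, 0.0564, 0.0981 and 0.0199 CPM with harmine (log2 fold change -3.23 ± 0.59, adjusted p = 0.000116). The size of this fall rests on few counts and was -3.93 without harmine replicate 3. MBD3L2 and MBD3L3 fell as well (-1.6 ± 0.16 and -1.82 ± 0.47), both uncertain because 79.4% and 57.0% of their sequence occurs in other genes. Members with shared sequence may share reads, so the count of members called is no count of separate falls. The median level of the list ran from -0.169 to 0.185 among water libraries and from -1.08 to -0.867 among harmine libraries. MBD3L3 was not called without water replicate 4 (-1.55, adjusted p = 0.0127) or without water replicates 1 and 4 (-1.39, adjusted p = 0.0459). Of HOX genes, which set identity along the body axis, 11 of 34 were lower and 2 higher. TRIM genes held 27 lower and 17 higher of 60, F-box genes 24 higher and 9 lower of 58, forkhead factors 12 higher and 4 lower of 27, and genes named as zinc fingers 107 higher and 61 lower of 500.

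Of p53 targets 18 of 33 members tested were higher and 1 lower (median 0.20), with DDB2 and XPC, which find damaged bases, at 0.79 ± 0.03 and 0.75 ± 0.03. CDKN1A, the CDK inhibitor p21 and the best known target of p53, read 453, 441, 444 and 467 CPM with water and 466, 466, 461 and 471 CPM with harmine with overlapping groups and was not called (log2 fold change 0.05 ± 0.04, adjusted p = 0.357). Of CDK inhibitors and D cyclins 4 of 14 members tested were higher and 3 lower (median 0.09). RBL1, the pocket protein p107, read 23.3, 26, 24.8 and 24.2 CPM with water and 46.3, 47.1, 46 and 46.6 CPM with harmine (log2 fold change 0.92 ± 0.05, adjusted p = 1.15e-11), and RBL2, the pocket protein p130 of the DREAM complex, rose less (0.37 ± 0.03). CDK4 and CCND1 rose by 0.28 and 0.17 on the log2 scale, CCND1 not passing without water replicates 1 and 4 (0.10, adjusted p = 0.0434). CDK6, CCND3 and CDKN2D fell (-0.30 ± 0.04, -0.23 ± 0.03 and -0.48 ± 0.07). CDKN1B, CDKN1C, CDKN2C, CDKN3, CCND2 and RB1 were not called, with log2 fold changes from -0.17 to 0.34. In the BCL2 family and apoptosis list 13 of 35 members tested were higher and 13 lower (median -0.06). BCL2A1, which protects cells and is an NF-kB target, fell from 1.96 ± 0.331 to 0.577 ± 0.123 CPM, and CASP9, the initiator caspase, also fell (-0.84 ± 0.06). For comparison, in DREAM targets 90 of 126 members tested were higher and 5 lower (median 0.36) and in DNA repair genes 92 of 146 members tested were higher and 17 lower (median 0.24). ASF1B, a histone chaperone, and EME1, a nuclease subunit, had the largest changes of these lists (1.56 ± 0.05 and 1.62 ± 0.13).

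Genes of the primary cilium, the antenna that resting cells build, rose more often than they fell. In this list 30 of 53 members tested were higher and 8 lower (median 0.18). TCTN2, of the transition zone, read 23.1, 22, 22.3 and 23 CPM with water and 33.4, 38.1, 34.7 and 35.8 CPM with harmine (log2 fold change 0.65 ± 0.04, adjusted p = 1.44e-10), and DYNC2I2, of the dynein that returns cargo from the tip, rose from 88.2 ± 2.32 to 139 ± 5.61 CPM. TMEM216, also of the transition zone, rose from 0.0194, 0.233, 0.119 and 0.14 CPM to 0.664, 0.621, 0.922 and 0.478 CPM, a low level in all libraries (log2 fold change 2.32 ± 0.33, adjusted p = 6.87e-06).

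Noncoding RNAs and gene structure gave further patterns. Of 3784 long noncoding RNAs tested 724 (19.1%) were higher and 490 (12.9%) lower, against 27.3% and 26.5% of 15181 protein-coding genes of the nucleus. With water the former summed to 14962 to 15716 CPM and the latter to 927235 to 933277 CPM. Among protein-coding genes with a mean log2 CPM up to 0 the shares were 13.7% and 15.9%. The part of level in this gap was not tested. PICART1 read 1.89, 2.68, 2.77 and 2.31 CPM with water and 11.5, 13.2, 11.4 and 11.4 CPM with harmine (log2 fold change 2.29 ± 0.11, adjusted p = 9.55e-12). LNCTAM34A, LINC02732 and AC007686.3 rose with log2 fold changes of 1.58 ± 0.11, 1.57 ± 0.08 and 1.77 ± 0.11, and CEROX1, LINC02328 and AC006460.2 fell (-1.52 ± 0.18, -1.58 ± 0.15 and -1.74 ± 0.20). FP236383.3 fell too (-2.21 ± 0.58), with 95.3% of its sequence shared and so uncertain, and was not called without water replicate 2 or any of harmine replicates 1 to 3 (adjusted p up to 0.0138), nor without water replicates 2 and 3 (adjusted p = 0.0264). Of 540 RNAs named as antisense to another gene 155 were higher and 58 lower (median 0.19). For the 485 with a tested partner the partners had a median of -0.01, with 141 higher and 133 lower, and of the 145 antisense RNAs that were higher 51 had a higher partner and 34 a lower one. The library kit marks strand, but no source says that the quantification used it, so reads of a gene and of its antisense partner may not be told apart.

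Long genes and genes of low GC content were lower more often. Of protein-coding genes over 200 kb 35.5% were lower and 19.5% higher, against 20.6% and 29.4% of those up to 5 kb. Where the canonical transcript held at most 40% G and C, 34.5% of 2455 genes were lower and 17.6% higher, and above 60% it was 18.2% and 34.7% of 2414. Across 15181 genes the log2 fold change had a Spearman rho of 0.148 with GC content and -0.096 with gene length. GC content and length had a rho of -0.372 with each other. These values are across genes, which share their libraries and are no replicates. Among genes over 50 kb the share lower was still larger than the share higher where GC content was at most 45% (1023 against 594 of 2972 genes) and smaller above 55% (206 against 280 of 889). Single libraries tilt as well. Set against the mean of the other water libraries, the rho with GC content was -0.205, 0.079, 0.002 and 0.1 for water replicates 1 to 4 and 0.075, 0.134, 0.158 and 0.203 for harmine replicates 1 to 4. The part of this tilt in the results above was not tested. Across the autosomes and X, chromosome 22 had the largest share of tested protein-coding genes higher (38.6%, with 15.3% lower). Chromosome 4 had the largest share lower (33.6%, with 18.4% higher). The part of GC content in these shares was not tested.

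**Figure D4:**
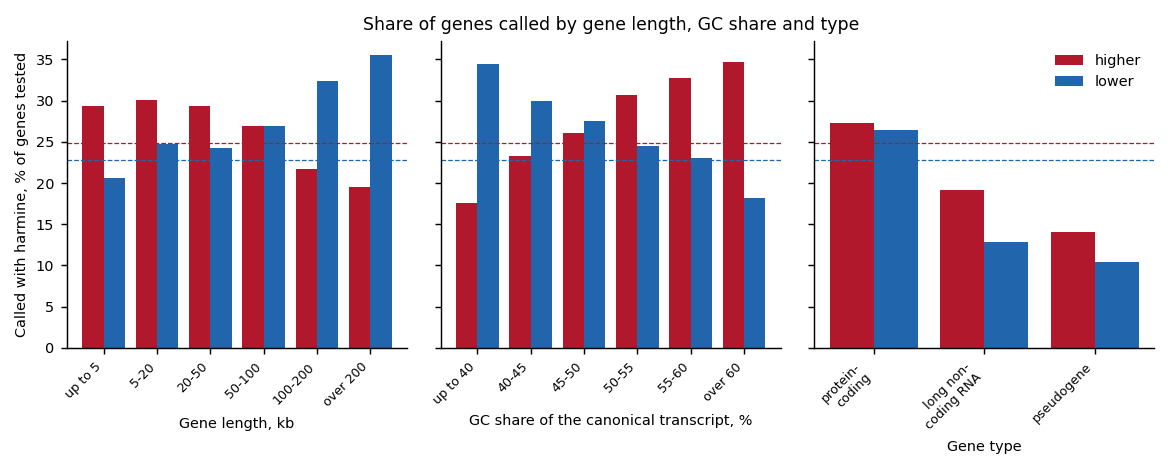
Percent of genes tested that were called higher (red) or lower (blue) with harmine by gene length, by GC content of the canonical transcript and by gene type, with dashed lines at the shares over all genes tested. From the shortest to the longest genes the share lower goes from 20.6% to 35.5%, and from the lowest to the highest GC content the share higher goes from 17.6% to 34.7%.

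Promoter letters differed between genes that rose and fell. Among protein-coding genes with a promoter, 795 were higher and 868 lower by at least 1.5-fold. TATAAA stood in 8.18% of the promoters of the higher genes and in 14.9% of those of the lower genes, against 6.47% of 12024 tested. TGANTCA, the letters of the AP-1 site of FOS and JUN, stood in 6.54% and 11.4%, against 5.17%, and GAAANNGAA in 6.42% and 11.8%, against 6.59%. For CCAAT the shares were 35.8% and 35.0%, against 36.4%. Some other motifs searched were also more frequent in lower genes. The heat shock element GAANNTTC stood in 4.15% and 7.83%, against 4.9%, and the TEAD site CATTCC in 10.2% and 14.4%, against 11.2%. Others were more frequent in higher genes. The E2F core TTTCCCGC stood in 3.14% and 1.27%, against 2.47%, and the E-box CACGTG in 8.55% and 5.65%, against 9.74%. Not all motifs searched are given. The part of GC content in these shares was not tested. Each motif was searched on both strands in 300 bases, 250 before and 50 after the start, and lists that share genes share these counts.

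The effect of harmine differed from that of INDY for 54.5% of the genes. Both compounds inhibit DYRK1A, but their doses and solvents differed, so the values are only set side by side. The effects share no library. In the test of the difference 5745 genes (28.1%) passed with a higher effect of harmine and 5394 (26.4%) with a lower one. SHISA9 had a log2 fold change of 2.35 ± 0.13 with harmine and -2.18 ± 0.18 with INDY, the largest difference upwards among the genes named by rule (4.53 ± 0.23, adjusted p = 7.61e-12). For TMEM158 the difference was 3.88 ± 0.14. RNF157, a ubiquitin ligase of neurons, MMP7, the matrilysin, F13A1, a subunit of clotting factor XIII, and CDK15 rose with harmine and fell with INDY, with differences from 3.69 ± 0.22 (CDK15) to 3.96 ± 0.08 (RNF157). The call for CDK15 with harmine was lost without water replicates 1 and 4 (0.30, adjusted p = 0.0905) and without 4 single libraries (adjusted p up to 0.0175). In the other direction PRAMEF12, a gene of the early embryo, had -1.44 ± 0.12 and 1.65 ± 0.11 (difference -3.09 ± 0.16, adjusted p = 1.11e-11), and MMP10, a stromelysin, -0.45 ± 0.11 and 2.61 ± 0.10, its call with harmine being lost without water replicates 1 and 4 (-0.43, adjusted p = 0.0202) and by limma voom (adjusted p = 0.0228). PRSS35 and LOXL4, whose falls rest in part on water replicates 1 and 4, differed in the same direction, as did TRIM43 and TRIM51BP, which are uncertain because they share 61.2% and 71.7% of their sequence with other genes. By list, medians with harmine and INDY were -1.08 and 1.33 for cleavage-stage genes, -0.69 and -0.03 for histones and 0.31 and -0.18 for SRF and actin genes. They were -0.09 and -0.84 for collagen chains and 0.06 and 0.64 for DYRK and CLK kinases. Both were below 0 for interferon-stimulated and cholesterol genes, at -0.56 and -0.39 and at -0.43 and -0.60.

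**Figure D5:**
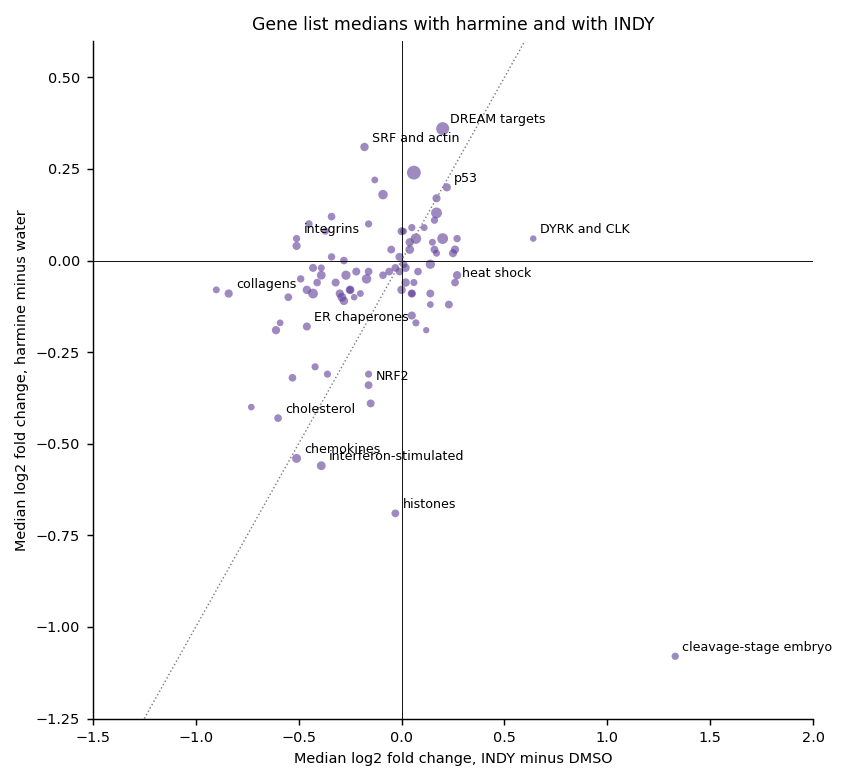
Median log2 fold change of each gene list with harmine (vertical axis) and with INDY (horizontal axis), with a dotted line where both are equal and larger points for longer lists. Cleavage-stage genes lie at -1.08 and 1.33, in the quadrant of opposite directions, and cholesterol and interferon-stimulated genes lie below 0 on both axes.

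Markers of other cell types were called in both directions in every list but the epithelial one, of which 9 of 17 members tested were lower and 0 higher (median -0.31). Its 26 markers summed to 748 to 801 CPM with water and 684 to 698 CPM with harmine. The abundant keratins KRT18 and KRT8 were not called (-0.05 ± 0.03 and -0.04 ± 0.03), while CLDN4, a tight junction protein, fell from 64.5 ± 9.02 to 28.1 ± 1.29 CPM, and DSP, of desmosomes, fell at a low level, from 1.1 ± 0.0983 to 0.257 ± 0.0942 CPM. In the osteoblast list 6 of 15 members tested were lower and 4 higher (median -0.02), at 1088 to 1255 CPM and 1477 to 1558 CPM in sum. TNFRSF11B, the decoy receptor osteoprotegerin, read 157, 206, 208 and 124 CPM with water and 324, 299, 278 and 286 CPM with harmine (log2 fold change 0.77 ± 0.12, adjusted p = 2.75e-05), and SPP1, osteopontin, fell (-0.82 ± 0.12). In the mesenchymal list 9 of 21 members tested were higher and 9 lower (median -0.05), at 5533 to 6118 CPM and 7365 to 7575 CPM in sum, with SNAI2 higher as given above and FAP, a fibroblast protease, lower, from 41.2 ± 2.74 to 19.7 ± 0.384 CPM. In the neuronal list 8 of 19 members tested were lower and 6 higher (median -0.08), with 5 lower without water replicate 2, harmine replicate 2 or 4, or water replicates 2 and 3, at 726 to 778 CPM and 841 to 878 CPM in sum. SYP, a synaptic vesicle protein, read 30.8, 38.8, 39 and 28 CPM with water and 13.5, 12.4, 12.6 and 13 CPM with harmine (log2 fold change -1.41 ± 0.10, adjusted p = 4.78e-10), and the adhesion molecules L1CAM and NCAM1 rose (0.38 ± 0.05 and 0.41 ± 0.04). In the muscle list 6 of 17 members tested were lower and 3 higher (median -0.31), at 313 to 319 CPM and 299 to 309 CPM in sum, with MYF5, MYF6 and MYH7 at 0 and ACTC1 and DES at under 1 CPM and lower (-2.21 ± 0.19 and -1.91 ± 0.32). In the chondrocyte list 6 of 15 members tested were higher and 3 lower (median 0.08), at 294 to 325 CPM and 264 to 276 CPM in sum. HAPLN1, which links hyaluronan to aggrecan, rose from 0.926 ± 0.198 to 3.66 ± 0.505 CPM, and SOX5, a cofactor of SOX9, fell (-1.29 ± 0.35) but was at -0.31 (adjusted p = 0.372) without water replicates 1 and 4, and missed the threshold without 5 of the 8 single libraries (adjusted p up to 0.0272) and by limma voom (adjusted p = 0.0256). In the blood list 5 of 11 members tested were lower and 1 higher (median -0.40), at 329 to 350 CPM and 480 to 508 CPM in sum, with HBA1, which defines red cells, at 0. LCP1, an actin bundling protein that many tumour lines make, read 217, 233, 234 and 216 CPM with water and 445, 445, 421 and 435 CPM with harmine (log2 fold change 0.96 ± 0.04, adjusted p = 1.54e-12), and ITGAM, an integrin of myeloid cells, fell from 35.5 ± 1.38 to 11.3 ± 0.834 CPM. In the adipocyte list, with ADIPOQ and CIDEA at 0, 4 of 21 were higher and 4 lower, and in the endothelial list 1 of 12 was higher and 2 were lower. The part of any other cell type in these results was not tested.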

How the data were processed

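RNA of 16 libraries of quiescent U2OS cells was sequenced in pairs of reads after poly(A) selection. The authors estimated counts per transcript with Salmon 1.1 against GENCODE transcripts on GRCh38, with corrections for GC content and sequence, and summed them per gene with tximport; the deposited table holds these estimated counts, without normalization, and 29.4% to 31.9% of the values of the 8 libraries described are not whole within 1e-06. Here they were rounded to whole numbers. Groups came from the sample labels, 4 libraries each. Genes were filtered with filterByExpr, scaled by TMM (factors 0.982 to 1.022) and fitted with edgeR 4.0.16 (R 4.3.3) in one quasi-likelihood model over all 16 libraries, and p-values were adjusted by the Benjamini-Hochberg method over all 20446 genes tested. A gene was called at an adjusted p under 0.01. In the text ± after a log2 fold change is its standard error and ± after a mean level is the SD of 4 libraries, and every p in the text without another name comes from this edgeR fit. Levels are CPM with the TMM factors, and log2 CPM used a prior count of 2. CPM is not divided by length, so levels are compared between groups and not between genes.

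The members and the gene lists were chosen with earlier results of these data known. Genes were named by rule: the 12 largest rises and falls among genes whose mean log2 CPM reached 1 and whose groups do not overlap, the 8 largest gains and losses in CPM, and for each list the 3 called members with the largest change. All tested members were added for DYRK and CLK kinases, monoamine metabolism, the aryl hydrocarbon receptor axis, and CDK inhibitors and D cyclins. The 4 largest rises and falls of long noncoding RNAs and the 6 largest differences from INDY in each direction were added too. Of the genes so named those that carry a list's description are given, and others are said to be chosen after their values were seen; some items are not reported here. Clone-based symbols were left out of the rules for the 12 largest rises and falls and for the differences from INDY. Of the list symbols 5 were not matched. Positions and gene types came from GENCODE 44 (56629 genes matched by identifier, 2227 by symbol, 225 not at all), promoters from RefSeq (GRCh38.p14, 13369 genes tested matched). A gene was called uncertain where over 30% of its stretches of 100 bases occur in another gene. The fit was tested on simulated data with known changes. Alternatives were limma voom 3.58.1, DESeq2 1.42.0, other scaling, filters and thresholds, a replicate block and libraries left out.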

Additional observations from a re-analysis of the deposited data

Results flagged for a closer look

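In 37 of 686 groups of 4 libraries looked at, which is 5.39%, the highest or lowest library lay far from the other 3, by a gap to its nearest neighbour above Dixon's 95% critical value for that share of the group's whole range. Chance gives such a gap in about 1 of 20 groups. These were water replicate 1 in 4 groups and water replicate 4 in 9, harmine replicates 1 to 4 in 10, 4, 7 and 3, and water replicates 2 and 3 in 0.

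Water replicate 4 was above its neighbours for ITGB3 (19.7 CPM), KRT18 (389 CPM), LGR5 (0.876 CPM), RBL2 (82 CPM) and TEAD1 (134 CPM), and below them for HAPLN1 (0.631 CPM), NOG (18.3 CPM), PLEK (7.27 CPM) and SLC7A11 (53.7 CPM). Water replicate 1 was above for CXCL8 (6.88 CPM), DDC (0.583 CPM) and SRSF8 (64.2 CPM), and below for the median level of the semaphorin, plexin and axon guidance list (-0.05 on the log2 scale).

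Harmine replicate 1 was above the other harmine libraries for ALDH3A2 (34.3 CPM), ATP6V0A1 (34.3 CPM), FUCA1 (73.5 CPM), HNRNPA1 (1090 CPM), LOXL4 (37.7 CPM), TRIM43 (9.34 CPM) and the median level of the cleavage and polyadenylation list (0.116), and below them for DLL4 (0.252 CPM), NR1D1 (33.8 CPM) and the median level of metallothioneins and zinc transport (-0.067). Harmine replicate 2 was above for FN1 (1982 CPM), PICART1 (13.2 CPM) and the median level of translation initiation factors (0.036), and below for that of NF-kB targets and regulators (-0.376).

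Harmine replicate 3 was above for AHRR (5.59 CPM, the other 3 reading 0.87 to 1.07 CPM), HES7 (0.628 CPM) and RNF157 (41.4 CPM), and below for ASF1B (61.5 CPM), DYRK2 (36.2 CPM), EDN1 (13.4 CPM) and QARS1 (640 CPM). Harmine replicate 4 was above for MMP10 (1.49 CPM), and below for PRSS35 (1.27 CPM) and the median level of CDK inhibitors and D cyclins (0.071).

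The effects of harmine and INDY, each against its own control, were tested for their difference, and 5745 genes passed with a higher effect of harmine and 5394 with a lower one. The doses and solvents of these compounds differ.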

How the results depend on the processing

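Of 5082 genes higher and 4666 lower with harmine, an estimated change of at least 1.5-fold left 1720 and 1615. The other settings stayed within 1.5 times of these counts. They gave 5025 and 4950 with DESeq2, 5100 and 4590 with limma voom, 4792 and 4955 with upper-quartile scaling, 4643 and 4938 with no filter, 4614 and 4660 with at least 10 counts in every library, 5008 and 5006 with the 8 harmine and water libraries alone, and 6199 and 5739 at an adjusted p under 0.05. Leaving out 1 library gave 4560 to 4768 higher and 4138 to 4381 lower. Without water replicates 1 and 4 the counts were 3914 and 3976, of which 3807 and 3790 had been called with all libraries, and without water replicates 2 and 3 they were 4411 and 4075.

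With the replicate number as a block 4948 genes were higher and 4527 lower, 4896 and 4469 of them shared with the fit without the block. Same-numbered water and harmine libraries did not deviate together (correlations of -0.027, -0.053, -0.007 and -0.039), so the numbers are not taken to pair the samples. The counts that differed from INDY, 5745 and 5394, were 5624 and 5268 with the block, 5461 to 5710 and 5091 to 5639 with 1 library left out, and 5137 and 5101 without water replicates 1 and 4.

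Of 251 genes named and tested 231 were called, 25 of these lost the call under some setting other than the 1.5-fold threshold, and 0 changed sign. The median of the TNF superfamily list came to 0 with at least 10 counts in every library, a setting under which fewer genes are tested. Of list counts 327 moved and 3169 did not over all settings. Of list medians 360 moved by at least the SD of the list's level among water libraries, 1 changed sign and 1387 did neither. A change in the amount of RNA per cell could not be measured, since CPM are shares of a library.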

Other observations

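Families defined by gene symbol add counts in both directions, to be read beside 24.9% of all genes tested higher and 22.8% lower. Of protein-coding genes tested 27.3% were higher and 26.5% lower. Of RAB GTPases, the switches of vesicle traffic, 20 of 60 tested were lower and 10 higher (median log2 fold change -0.07). DNAJ co-chaperones, partners of HSP70, held 17 lower and 7 higher of 39 (median -0.09). KLHL adaptors of CUL3 ubiquitin ligases held 13 lower and 6 higher of 31 (median -0.14), and protein tyrosine phosphatases 13 lower and 5 higher of 36 (median -0.09). Orphan and adhesion G protein-coupled receptors held 18 lower and 8 higher of 61 (median -0.05). Motor proteins gave the other order, with 13 kinesins of 38 higher and 7 lower (median 0.13) and 12 myosin heavy chains of 31 higher and 6 lower (median 0.07). Ubiquitin-specific proteases (12 higher and 13 lower of 46) and the MAP kinase cascade (13 and 13 of 42) gave near-equal counts.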
